A study of Homo sapiens with 20 samples.

Results

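The genes described here encode the enzymes of glycolysis, gluconeogenesis and the pentose phosphate pathway. They were taken by name, 31 in all, and the array held a probe for each. For 30 of them a probe was detected, meaning a detection p-value below 0.01, in both replicates of some group, and 9592 genes in all met that condition. The exception was ENO2, the neuronal enolase, whose probe was detected on no array and which has no value below. Glycolysis breaks glucose down to pyruvate, which lactate dehydrogenase turns into lactate, while gluconeogenesis runs the path in reverse and replaces the phosphofructokinase step by the phosphatase FBP1. The pentose phosphate pathway branches off at glucose 6-phosphate and supplies NADPH and ribose 5-phosphate. Tumour cells often take up glucose and release lactate even with oxygen at hand, and growth factor receptors of the ERBB family are known to raise glycolytic flux.

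All samples were SKBr3 cells, a human breast cancer line with amplified ERBB2, and their RNA was hybridized to 20 Illumina HumanHT-12 v4 arrays in 10 groups of 2. Every culture had received siRNA for 60 h, either the control (siC) or one directed at ESRRA, the gene of the nuclear receptor ERRα (siERRα), so that no group was untransfected. In one experiment the cells were deprived of serum and then given vehicle (PBS; the starved groups), EGF or heregulin (HRG), the growth factors at a stated 100 µM for 24 h per the labels, although the methods for the arrays give a shorter exposure. In the other, parental SKBr3 cells in serum-containing medium were set beside a lapatinib-resistant derivative maintained in lapatinib, a drug that blocks the kinases of EGFR and ERBB2, at 2 µM per the protocol and 1 µM per the group label. The resistant cells were a single derived line, so that resistance, the drug in the medium and the history of that line cannot be told apart. Whether replicates were separate cultures is not in the labels, and p-values therefore measure only how far these samples spread, which may be technical variation.

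Of the 8 genes listed for luminal epithelium with the ERBB2 amplicon, 7 were detected, ERBB2, KRT8, KRT19 and EPCAM among them. The other, CDH3, encodes P-cadherin, a basal rather than a luminal marker, and was not detected. Markers of fibroblasts (0 of 6), muscle (0 of 4), endothelium (2 of 4, CDH5 and VWF) and leukocytes (3 of 6, CD68, LYZ and CD14) were mostly not detected, with COL1A1, DES, PECAM1 and PTPRC detected on no array. Probes detected per array numbered 12582 to 15177 on 19 arrays. One array, EGF siERRα replicate 1, stood apart from the others, with 12151 detected probes and correlations of 0.831 to 0.876 with the other arrays, which correlated with each other at 0.933 to 0.99. All groups shared one estimate of the spread, so counts of called genes are given for the 20 arrays and again for the other 19. ESRRA fell by 1.47 on the log2 scale on average over the 5 settings with siERRα (SE 0.14, limma adjusted p = 0.000527), and its siERRα arrays lay below its siC arrays in each setting. Within settings it fell by 2.61 in resistant cells (adjusted p = 0.00794), while its differences in parental cells (-1.33), after vehicle (-1.14), with HRG (-0.99) and with EGF (-1.28, and -0.83 with 19 arrays) did not pass, with 20 arrays (adjusted p = 0.147 to 1) or with 19 (0.311 to 0.536).

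Most of these genes kept a narrow range of log2 intensity across the 5 culture settings and both siRNAs. Over the 19 arrays, the range from the lowest to the highest array had a median of 0.76 log2 units for the 30 genes and of 1.1 for all genes. It was under 1 log2 unit for 20 of the 30 (66.7%), against 42.4% of all genes. The 30 genes were also brighter than all genes, with a median mean level of 10.28 against 8.07, and had a median SD within groups of 0.143 against 0.206, and the part of level and spread in the narrower range was not tested. The narrowest ranges belonged to ENO1, the ubiquitous enolase (0.32), TALDO1, the transaldolase of the non-oxidative pentose phosphate branch (0.32), and PGK1, which makes the first ATP of glycolysis (0.38). ALDOC, an aldolase, GAPDH, the glyceraldehyde 3-phosphate dehydrogenase, and TPI1, the triose phosphate isomerase, ranged over 0.41, 0.47 and 0.47. A range over 2 log2 units was seen for 4 of the 30, whereas 8.57% of all genes had one. These were FBP1, fructose-1,6-bisphosphatase (4.55), PFKP, the platelet-type phosphofructokinase (3.37), BPGM, the bisphosphoglycerate mutase that makes 2,3-bisphosphoglycerate (2.69), and GALM, the galactose mutarotase (2.40). Only 20 of all genes ranged more widely than FBP1, and 106 more widely than PFKP, but the range of FBP1 ends on an array where its probe was not above background. FBP1 and PFKP act on the same pair of sugar phosphates in opposite directions. With limma's test, 5 of the 30 genes (FBP1, PFKP, HK1, GALM and RPIA) were called in at least 1 of the 15 comparisons with 20 arrays and 11 with 19 arrays, at an adjusted p under 0.05 over all 9592 genes, while 19 were called in none. The share of all genes called in at least 1 comparison was not computed, so these counts have no background beside them. Shares for single comparisons are given below.

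**Figure D1:**
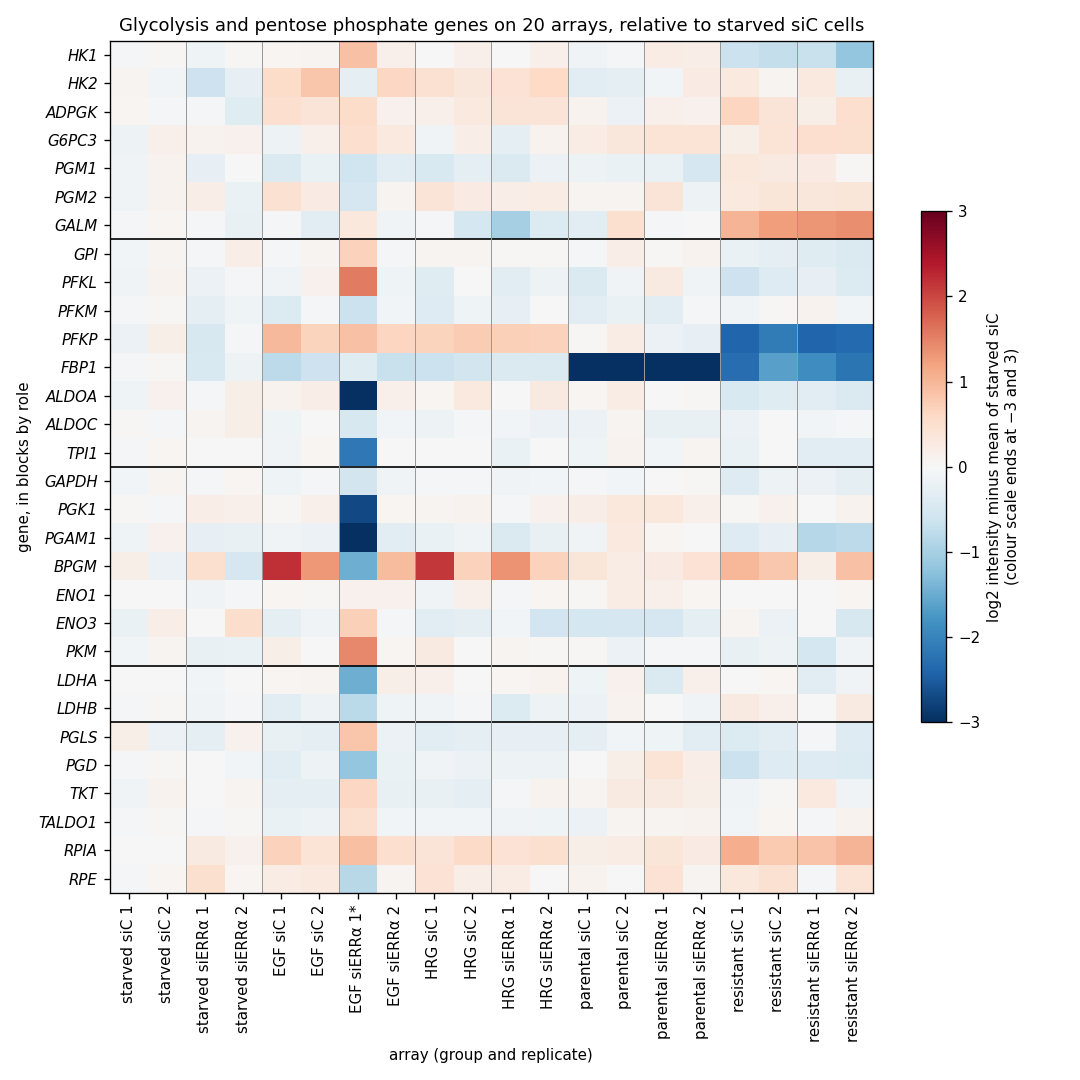
Log2 intensity of the 30 detected genes (rows, in blocks by role) on each of the 20 arrays (columns), as the difference from the mean of the 2 starved siC arrays, on a colour scale that ends at -3 and 3. FBP1 was darkest blue on the parental arrays, PFKP was dark blue on the resistant arrays, and the array marked with an asterisk (EGF siERRα replicate 1) differed from all others in many rows.

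For each gene the window from 250 bases before to 50 after the transcription start was taken from RefSeq (GRCh38.p14), and all 31 genes matched. Below are the 250 bases before the start, written 5′ to 3′ on the gene's strand, for the pair of genes with the widest ranges, on which the results below turn, and for those with a match to AAGGTCA, the core of the ERRα element, before the start. Capitals mark matches to the motifs searched.
FBP1: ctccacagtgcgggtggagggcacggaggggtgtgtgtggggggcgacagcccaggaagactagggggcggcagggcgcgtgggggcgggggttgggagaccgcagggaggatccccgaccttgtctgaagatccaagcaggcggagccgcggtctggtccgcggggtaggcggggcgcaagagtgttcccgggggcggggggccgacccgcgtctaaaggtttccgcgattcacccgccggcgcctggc
PFKP: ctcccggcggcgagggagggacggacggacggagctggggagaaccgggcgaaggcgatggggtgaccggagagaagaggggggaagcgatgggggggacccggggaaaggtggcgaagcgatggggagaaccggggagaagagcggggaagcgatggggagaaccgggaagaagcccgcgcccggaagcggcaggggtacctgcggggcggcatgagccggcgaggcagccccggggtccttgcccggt
ALDOC: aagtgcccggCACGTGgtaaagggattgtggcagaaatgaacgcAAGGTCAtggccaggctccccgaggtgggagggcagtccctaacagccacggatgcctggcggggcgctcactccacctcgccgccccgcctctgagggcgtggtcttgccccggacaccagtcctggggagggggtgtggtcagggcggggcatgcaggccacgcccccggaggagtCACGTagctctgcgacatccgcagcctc
RPE: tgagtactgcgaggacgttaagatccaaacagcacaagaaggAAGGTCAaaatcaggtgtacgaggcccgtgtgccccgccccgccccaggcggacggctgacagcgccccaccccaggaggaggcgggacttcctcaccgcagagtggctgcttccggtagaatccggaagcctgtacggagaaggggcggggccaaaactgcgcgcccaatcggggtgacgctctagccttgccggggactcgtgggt
FBP1 is on the minus strand at chr9:94639519-94639768 and PFKP on the plus strand at chr10:3067720-3067969. Both windows lie within the annotated span of their gene, since longer transcripts start further upstream. ALDOC, on the minus strand at chr17:28576896-28577145, and RPE, the ribulose 5-phosphate epimerase, on the plus strand at chr2:210002388-210002637, have windows just outside the gene.

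The windows were searched on both strands for TCAAGGTCA, the extended half-site bound by ERRα, its core AAGGTCA, the E-box CACGTG, the core of the hypoxia response element ACGTG, which overlaps the E-box, and the AP-1 element TGANTCA. TCAAGGTCA was found in 0 of the 31 windows and in 0.353% of all 35116 promoter windows of this length. AAGGTCA was found in 3 (9.68%, against 3.92% of all), in ALDOC at -206, in RPE at -208 and in TPI1 just after the start. CACGTG was found in 5 (16.1%, against 7.26%), in ALDOC, GAPDH, LDHA, PGM2 and G6PC3. ACGTG was found in 12 (38.7%, against 21.4%), among them LDHA, PGK1, ALDOA, HK2, GPI, BPGM and PGD. TGANTCA was found in 2 (6.45%, against 7.71%), in ENO2 and ENO3. Of the 5 genes called with 20 arrays, FBP1, PFKP, HK1, GALM and RPIA, 0 had any of these letters in their window. Of the 6 others called with 19 arrays, HK2, BPGM, GPI, ALDOA, PGD and PGAM1, 5 had ACGTG and PGAM1 had none of the motifs. At least 1 motif was found in 15 of the 31 windows (48.4%) and in 30.7% of all. A match describes the letters of this window and no more.

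The level of FBP1 separated the growth factor experiment from the parental and resistant cells. On the 12 arrays of the starved, EGF and HRG groups its log2 intensity lay between 9.10 and 9.92. It read 5.84 and 5.38 in parental siC cells, 6.06 and 6.41 in parental siERRα cells, 7.60 and 8.26 in resistant siC cells and 8.02 and 7.68 in resistant siERRα cells. The parental arrays were thus the lowest, the resistant arrays lay above them and the starved and growth factor arrays highest, with no overlap between these 3 sets. The single probe for FBP1 was not above background on parental siC replicate 2, where its detection p-value was 0.0234, and was detected on the other 19 arrays.

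Serum-grown parental siC cells were compared with starved siC cells, a comparison in which serum and experiment cannot be told apart. FBP1 was lower by 4.27 log2 units (SE 0.24, 19.3-fold, limma adjusted p = 4.51e-07), from 9.88 ± 0.06 (SD of 2 arrays) in starved to 5.61 ± 0.32 in parental cells. It was the only gene called of the 30 with 20 arrays or with 19, against 0.73% of all genes with 20 and 2.16% with 19. The median difference was 0 for the 30 genes and 0.02 for all genes. The next largest differences were those of ENO3, the muscle-type enolase (-0.52, SE 0.28, adjusted p = 0.647), and of HK2, the inducible hexokinase (-0.32, SE 0.27, adjusted p = 0.843). The probe was above background on 1 of the 2 parental siC arrays. The fall of FBP1 was called under 12 of 12 other settings of the fit, with log2 differences from -4.50 to -2.16, the smallest with the authors' normalized values.

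**Figure D2:**
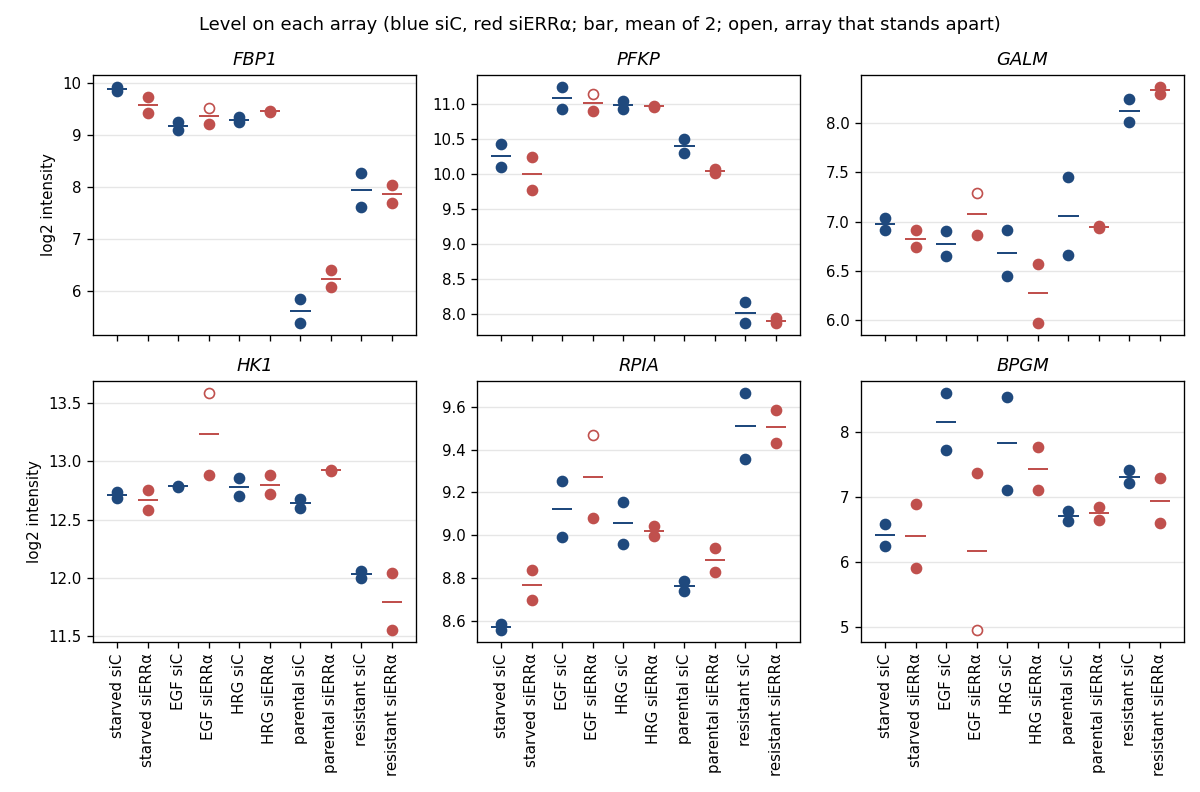
Log2 intensity of FBP1, PFKP, GALM, HK1, RPIA and BPGM on each array (points) by group, with a bar at the mean of the 2 arrays; blue is siC, red siERRα, and the open point is EGF siERRα replicate 1. FBP1 and PFKP stepped between experiments or cell lines, with PFKP near 8 on the 4 resistant arrays and between 9.77 and 11.24 on the other 16.

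EGF and HRG were each compared with vehicle in starved siC cells. The 2 comparisons share the starved siC arrays, so their values are given side by side and are not independent. With EGF, 1 of the 30 genes was higher and 0 lower with 20 arrays (5.25% of all genes called), and 4 were higher and 0 lower with 19 (11.7% of all genes). With HRG, limma called 0 with 20 arrays (2.91% of all genes called) and 1 with 19 (7.64%). With 20 arrays, 4 had an unadjusted p under 0.05 (13.3%, against 14.6% of all genes), and the methods' t-test put 2 there. The median difference over the 30 genes was 0.01 for EGF and 0.01 for HRG, beside -0.06 and -0.05 for all genes. Fewer cells of a kind and less RNA per cell cannot be told apart in such bulk samples.

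PFKP, one of the 3 phosphofructokinases that commit fructose 6-phosphate to glycolysis, read 10.09 and 10.43 in starved siC cells, 11.24 and 10.92 with EGF and 10.92 and 11.03 with HRG. All growth factor arrays lay above both starved arrays. Its log2 difference was 0.82 with EGF (SE 0.20, 1.77-fold, limma adjusted p = 0.0272, and 0.0109 with 19 arrays) and 0.72 with HRG (SE 0.20, 1.65-fold, adjusted p = 0.0708, and 0.0304 with 19 arrays). With 20 arrays the EGF call was kept in 1 of 4 fits without 1 array compared (adjusted p up to 0.261) and was lost with the arrays of the same experiment alone (0.124). With 19 arrays it was lost on leaving out starved siC replicate 1 or EGF siC replicate 1, with adjusted p-values up to 0.111, and the HRG call on leaving out starved siC replicate 1 or either HRG siC replicate, up to 0.189. The liver and muscle forms, PFKL and PFKM, had differences of 0.01 and -0.22 with EGF and of -0.17 and -0.26 with HRG and were not called.

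BPGM, RPIA and HK2 were not called with EGF in the fit on 20 arrays and were called with 19, or with 20 under array weights. BPGM read 6.59 and 6.24 in starved siC cells, 8.60 and 7.72 with EGF and 8.55 and 7.11 with HRG. Its replicates with HRG were over 1 log2 unit apart, and no growth factor array overlapped the starved ones. The difference was 1.74 with EGF (3.35-fold, adjusted p = 0.162 with 20 arrays and 0.0237 with 19) and 1.41 with HRG (adjusted p = 0.334 and 0.0764), and the EGF difference ran from 0.73 with the authors' normalized values to 2.18 without EGF siC replicate 2. RPIA, which makes ribose 5-phosphate, read 8.58 and 8.56 in starved siC cells, 9.26 and 8.99 with EGF and 8.96 and 9.15 with HRG. Its differences were 0.55 (adjusted p = 0.0964 and 0.0263) and 0.49 (adjusted p = 0.188 and 0.0619). HK2 read 9.29 and 9.13 in starved siC cells, 9.76 and 10.05 with EGF and 9.66 and 9.56 with HRG, again without overlap. Its differences were 0.69 (adjusted p = 0.181 and 0.0355) and 0.40 (adjusted p = 0.577 and 0.242), and its second probe gave 0.70 with EGF and 0.66 with HRG. With 19 arrays, leaving out 1 further array ended the EGF call of HK2 in 4 of 4 cases (adjusted p up to 0.179), and those of BPGM and RPIA in all cases but 1 (up to 0.197 and 0.215).

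FBP1 had the largest negative difference with both growth factors. It read 9.84 and 9.92 in starved siC cells, 9.10 and 9.25 with EGF and 9.25 and 9.33 with HRG, without overlap. The difference was -0.71 with EGF (SE 0.24, adjusted p = 0.123, and 0.0587 with 19 arrays) and -0.59 with HRG (SE 0.24, adjusted p = 0.258 and 0.133), so it did not pass in either. Lactate dehydrogenase genes differed little, with 0.06 for LDHA and -0.25 for LDHB under EGF and 0.08 and -0.07 under HRG. A dimmer probe for LDHA gave 0.76 with EGF and 0.89 with HRG, and was not called over all probes (adjusted p = 0.272 and 0.23).

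**Figure D3:**
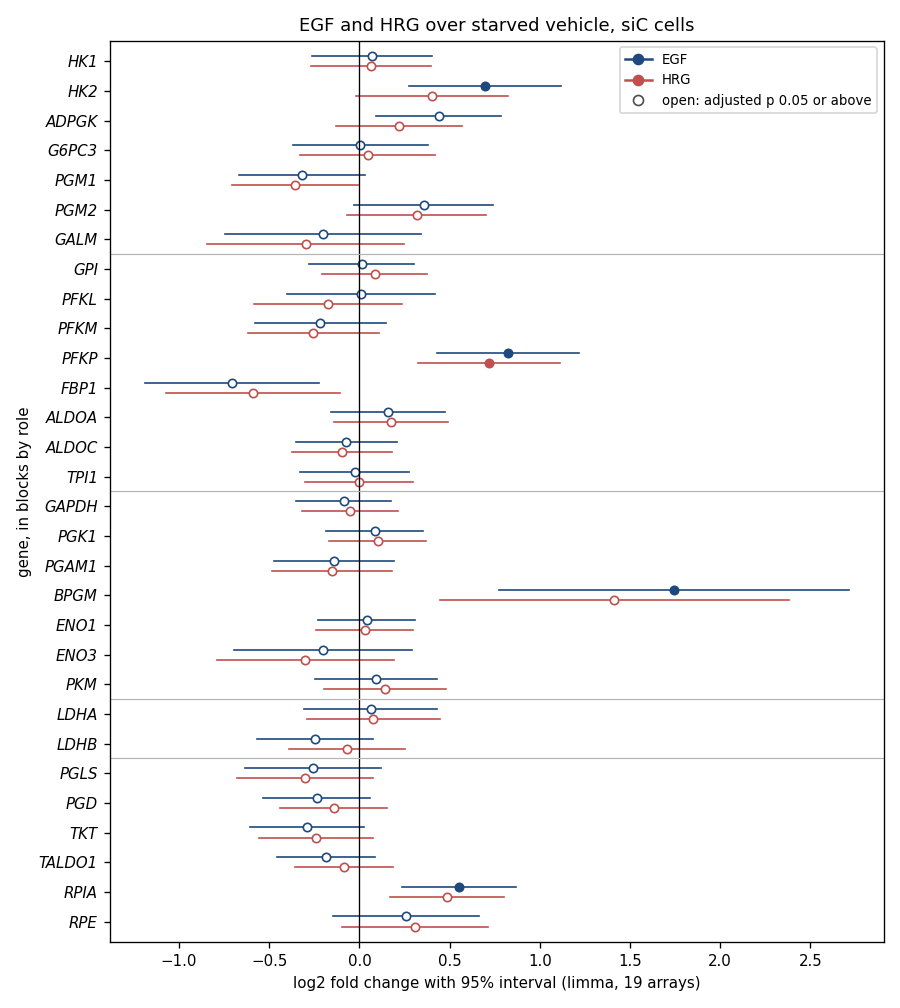
Log2 fold change of each of the 30 genes with EGF (blue) and HRG (red) over starved vehicle in siC cells, with 95% intervals from limma on 19 arrays; filled points passed an adjusted p of 0.05. PFKP was filled for both, HK2, BPGM and RPIA for EGF only, and the other points lay between -0.71 and 1.41.

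HRG and EGF were also compared directly in siC cells. Limma called 0 of the 30 genes with 20 or 19 arrays (0% and 0.073% of all genes), and 0 had an unadjusted p under 0.05, also by the t-test. By limma, 2.91% and 5.32% of all genes had such a p. The largest differences were -0.33 for BPGM, with a 95% interval of -1.30 to 0.64 on 19 arrays, -0.29 for HK2 (-0.71 to 0.13) and -0.22 for ADPGK, the ADP-dependent glucokinase (-0.57 to 0.13). The design therefore leaves room for differences of those sizes.

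Among 53 related genes of glucose transport and of neighbouring pathways, 23 were measured. With 20 arrays, 1 was higher and 2 lower with EGF (5.25% of all genes called) and 1 was higher and 3 lower with HRG (2.91%). Limma called 0 in the comparison of the growth factors (0% of all genes) or of parental with starved cells (0.73%). PFKFB3, whose product makes the fructose 2,6-bisphosphate that activates phosphofructokinase and inhibits FBP1, rose by 2.13 log2 units with EGF (SE 0.26, adjusted p = 0.000385) and by 1.45 with HRG (adjusted p = 0.00988). TXNIP, an inhibitor of glucose uptake, fell by 2.02 and by 2.22 (adjusted p = 0.00091 and 0.000826). The sugar transporter gene SLC2A12 fell by 1.43 and by 1.61 (adjusted p = 0.0193 and 0.0167), and SLC2A10 fell by 1.12 with HRG (adjusted p = 0.0321). TIGAR, a fructose 2,6-bisphosphatase, was higher by 0.96 and 0.72 and was called only with 19 arrays (adjusted p = 0.00289 and 0.023).

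Lapatinib-resistant cells were compared with parental cells to see which genes differ in cells that grow in the drug. The parental siC arrays also entered the comparison with starved cells. In siC cells, 3 of the 30 genes were higher and 1 lower with 20 arrays (4.5% of all genes called), and 3 were higher and 4 lower with 19 (10.2%). In siERRα cells, 2 were higher and 2 lower with 20 arrays (5.03%), and 3 were higher and 5 lower with 19 (11.2%). The median difference of the 30 genes was -0.01 in siC and -0.07 in siERRα cells, beside 0.02 and 0.00 for all genes.

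The largest differences belonged to PFKP and FBP1 and ran in opposite directions. PFKP read 10.30 and 10.49 in parental siC cells against 7.87 and 8.17 in resistant siC cells, and 10.07 and 10.01 against 7.87 and 7.93 with siERRα. The 4 resistant arrays were the lowest of all 20. PFKP fell by 2.38 log2 units in siC cells (SE 0.20, 5.2-fold, adjusted p = 1.05e-05) and by 2.14 in siERRα cells (SE 0.20, 4.4-fold, adjusted p = 3.01e-05). FBP1, with the values given above, rose by 2.33 in siC cells (SE 0.24, 5.02-fold, adjusted p = 7.5e-05) and by 1.62 in siERRα cells (SE 0.24, 3.07-fold, adjusted p = 0.00147). Both arrays of each resistant group lay above both parental arrays. Each of these 4 calls was made under 13 of 13 other settings of the fit. The size depended on the setting, from 0.80 to 2.66 in siC and 0.60 to 1.79 in siERRα cells for FBP1 and from -2.53 to -1.77 and -2.17 to -1.53 for PFKP, the smallest each time with the authors' normalized values. The resistant arrays of FBP1 nevertheless all lay below its starved arrays.

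GALM and RPIA were higher in resistant cells. GALM, which interconverts the anomers of galactose and glucose, read 6.67 and 7.45 in parental siC cells against 8.01 and 8.24, and 6.93 and 6.96 against 8.29 and 8.37 with siERRα, without overlap. It rose by 1.07 in siC cells (SE 0.27, 2.09-fold, adjusted p = 0.04) and by 1.38 in siERRα cells (SE 0.27, 2.61-fold, adjusted p = 0.00829). The authors' normalized values gave 0.49 and 0.65, and without parental siC replicate 1 the siC difference was 0.67. With 20 arrays the siC call was kept in 1 of 4 fits without 1 array compared (adjusted p up to 0.376) and the siERRα call in 0 of 4 (up to 0.0728). With 19 arrays the siC call was lost without parental siC replicate 1 or either resistant siC replicate (adjusted p up to 0.172), and the siERRα call was kept in 4 of 4 such fits. RPIA read 8.74 and 8.79 against 9.66 and 9.36 in siC cells and 8.94 and 8.83 against 9.43 and 9.58 with siERRα. It rose by 0.75 in siC cells (SE 0.17, 1.68-fold, adjusted p = 0.0273), and its difference with siERRα was 0.62 (adjusted p = 0.0594, and 0.0149 with 19 arrays). With 20 arrays the siC call was kept in 0 of 4 fits without 1 array compared (adjusted p up to 0.251), and with 19 it was lost without resistant siC replicate 1 (0.0702).

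HK1, the hexokinase found in most cells, was lower in resistant cells. It read 12.60 and 12.68 in parental siC cells against 12.06 and 11.996, and 12.93 and 12.92 against 12.04 and 11.55 with siERRα, and the 4 resistant arrays were its lowest. Its difference was -0.61 in siC cells (SE 0.21, adjusted p = 0.151, and 0.023 with 19 arrays), and it fell by 1.13 in siERRα cells (SE 0.21, 2.19-fold, adjusted p = 0.00744). The second HK1 probe was much dimmer, at 4.86 to 6.30 on the parental and resistant arrays, and gave -0.27 in siC cells and -0.90 in siERRα cells. With 20 arrays the siERRα call was kept in 1 of 4 fits without 1 array compared (adjusted p up to 0.102). With 19 arrays, leaving out any 1 of the 4 arrays compared ended the siC call (adjusted p up to 0.129) and none ended the siERRα call. The inducible HK2 had 0.51 in siC and -0.05 in siERRα cells and was not called in either.

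PGD, ALDOA, PGAM1 and GPI were not called with resistance in the fit on 20 arrays and were called with 19, all of them lower. PGD and GPI were also called under array weights with 20 arrays, and PGD and PGAM1 with siERRα in the arrays of the same experiment alone. PGD, the 6-phosphogluconate dehydrogenase that yields NADPH, read 10.97 and 11.16 in parental siC cells against 10.33 and 10.60, and 11.40 and 11.19 against 10.60 and 10.56 with siERRα. Its differences were -0.60 (adjusted p = 0.214 with 20 arrays and 0.014 with 19) and -0.71 (adjusted p = 0.123 and 0.0046). ALDOA, the main aldolase of glycolysis, read 13.92 and 14.09 against 13.42 and 13.51 in siC cells, a difference of -0.54 (adjusted p = 0.936 and 0.0337), and its difference with siERRα was -0.41 (adjusted p = 0.95 and 0.095). Its second probe gave -0.32 in siC cells.

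PGAM1, the phosphoglycerate mutase of lower glycolysis, read 10.68 and 10.59 in parental siERRα cells against 9.75 and 9.82 in resistant siERRα cells. Its difference there was -0.85 (adjusted p = 0.812 with 20 arrays and 0.00319 with 19), its second probe gave -0.95, and in siC cells it was -0.40 (adjusted p = 0.939 and 0.121). The second PGAM1 probe gave -0.54 in siC cells. PGAM4, a near-identical copy whose probe may share the signal of PGAM1, had -0.54 in siC and -0.78 in siERRα cells. Its adjusted p was 0.612 and 0.378 with 20 arrays, and 0.0338 and 0.00426 with 19. GPI, which interconverts glucose 6-phosphate and fructose 6-phosphate, had -0.48 in siERRα cells (adjusted p = 0.255 and 0.0374) and -0.32 in siC cells (adjusted p = 0.526 and 0.158). With 19 arrays, the siERRα call of PGAM1 was kept in 4 of 4 fits without 1 further array and that of GPI in none (adjusted p up to 0.164). PGD lost its siC call without parental siC replicate 2 or resistant siC replicate 1 (up to 0.136) and its siERRα call without parental siERRα replicate 1 (adjusted p = 0.054), ALDOA lost its siC call without any 1 of the 4 arrays (up to 0.192), and RPIA lost its siERRα call without either parental siERRα replicate or resistant siERRα replicate 2 (up to 0.102).

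**Figure D4:**
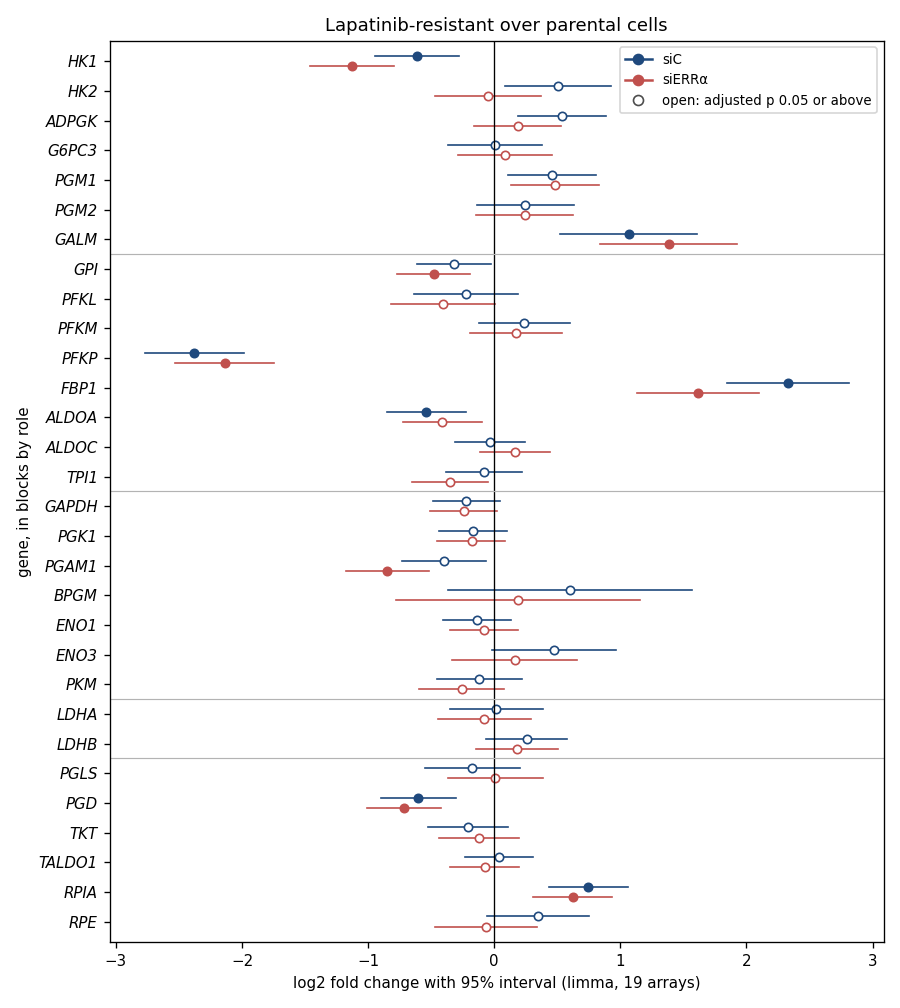
Log2 fold change of each of the 30 genes in lapatinib-resistant over parental cells, with siC (blue) and siERRα (red), with 95% intervals from limma on 19 arrays; filled points passed an adjusted p of 0.05. PFKP (-2.38 and -2.14) and FBP1 (2.33 and 1.62) had the largest differences, and the other genes lay between -1.13 and 1.38. In siERRα cells the interval of FBP1 (1.14 to 2.10) overlapped that of GALM (0.84 to 1.93).

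The remaining genes were not called with resistance in the fit on all arrays or in that on 19. Some of their differences were still as large as those of genes called above. BPGM had 0.60 in siC cells (95% interval -0.37 to 1.57, adjusted p = 0.447 with 19 arrays). In siERRα cells it had 0.19 (adjusted p = 0.839 with 19 arrays). Medians by role were taken over all genes of a role, those described above included. In siC cells with 19 arrays the median difference was 0.46 for the 7 genes around glucose 6-phosphate. It was -0.15 for the 8 of upper glycolysis with FBP1 and -0.14 for the 7 of lower glycolysis. The 2 lactate dehydrogenases had a median of 0.14 and the 6 genes of the pentose phosphate pathway one of -0.07. In siERRα cells these medians were, in the same order, 0.185, -0.38, -0.18, 0.05 and -0.07. PGM1, the phosphoglucomutase that links glycogen to glycolysis, had 0.46 in siC and 0.48 in siERRα cells (adjusted p = 0.0907 and 0.0771 with 19 arrays), and ADPGK had 0.54 and 0.19 (adjusted p = 0.0513 and 0.271). PKM, the pyruvate kinase, had -0.12 and -0.26, and ENO3 had 0.48 and 0.16. PGM2, G6PC3, a glucose 6-phosphatase of most tissues, PGLS, the lactonase, and TKT, the transketolase, had differences of 0.25, 0.01, -0.17 and -0.21 in siC cells, and LDHA and LDHB of 0.02 and 0.26.

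Of the 23 related genes measured, limma called 2 higher and 1 lower in siC cells with 20 arrays, and 2 higher and 1 lower in siERRα cells. The shares of all genes called were 4.5% and 5.03%. With 19 arrays, 2 related genes were higher and 4 lower in each, against 10.2% and 11.2% of all genes. PFKFB3 fell by 1.28 in siC cells (SE 0.26, adjusted p = 0.0143) and by 1.36 in siERRα cells (adjusted p = 0.00816). RBKS, the ribokinase, rose by 0.96 and 1.13 (adjusted p = 0.0172 and 0.00551). SLC2A3, the neuronal-type glucose transporter GLUT3, rose by 1.70 and 1.65, with adjusted p-values of 0.0471 and, at the threshold, 0.05. PHGDH, which draws 3-phosphoglycerate into serine synthesis, had -1.04 and -0.995 and was called only with 19 arrays (adjusted p = 0.0293 and 0.0347). The same held for PRPS2 in siC cells (-1.05, adjusted p = 0.0496), BSG in siERRα cells (-0.505, adjusted p = 0.0261) and PGAM4, given above.

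Depletion of ERRα was compared with the control siRNA in each setting. Limma called 0 of the 30 genes in starved, EGF, HRG, parental or resistant cells, with 20 arrays or with 19. Over all genes, the share called with 20 arrays was 0.0104% in starved, 0.073% in EGF, 0% in HRG, 0% in parental and 0.0104% in resistant cells, and with 19 arrays 0.0104%, 0%, 0.0104%, 0% and 0.0521%, so that few calls were made anywhere. With 19 arrays, 1, 0, 0, 1 and 1 of the 30 had an unadjusted p under 0.05 in these settings. The share of all genes there was 4.71%, 7.2%, 5.58%, 5.08% and 6.84%. The methods' t-test, run with no array left out, put 1 of the 30 there in each. With 20 arrays, limma put 9 of the 30 (30%) there in EGF-treated cells, against 24% of all genes. In that setting the array that stands apart is 1 of 2. The largest differences with 19 arrays were -0.43 for HK2 in starved cells, -0.78 for BPGM in EGF-treated cells, -0.41 for GALM in HRG-treated cells, 0.63 for FBP1 in parental cells and -0.51 for PGAM1 in resistant cells, with adjusted p-values of 1, 0.829, 1, 0.93 and 0.456. The second HK2 probe gave 0.05 in starved cells.

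Averaged over the 5 settings, limma called 0 of the 30 with 20 arrays (0.0104% of all genes) or with 19 (0.0209%), and 0 and 2 had an unadjusted p under 0.05, against 8.63% and 11.1% of all genes. The median mean difference with 19 arrays was -0.02 for the 30 genes and 0.00 for all genes. The 95% interval of the mean difference lay within 0.5 log2 units of 0 for 29 of the 30 with 19 arrays and for 23 with 20. BPGM was the exception (-0.30, interval -0.76 to 0.15). PGAM1 had -0.23 (interval -0.39 to -0.08, adjusted p = 0.26) and PFKP -0.18 (interval -0.37 to 0, adjusted p = 0.45). The genes with AAGGTCA in their window had -0.02 (ALDOC), -0.02 (RPE) and -0.06 (TPI1).

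**Figure D5:**
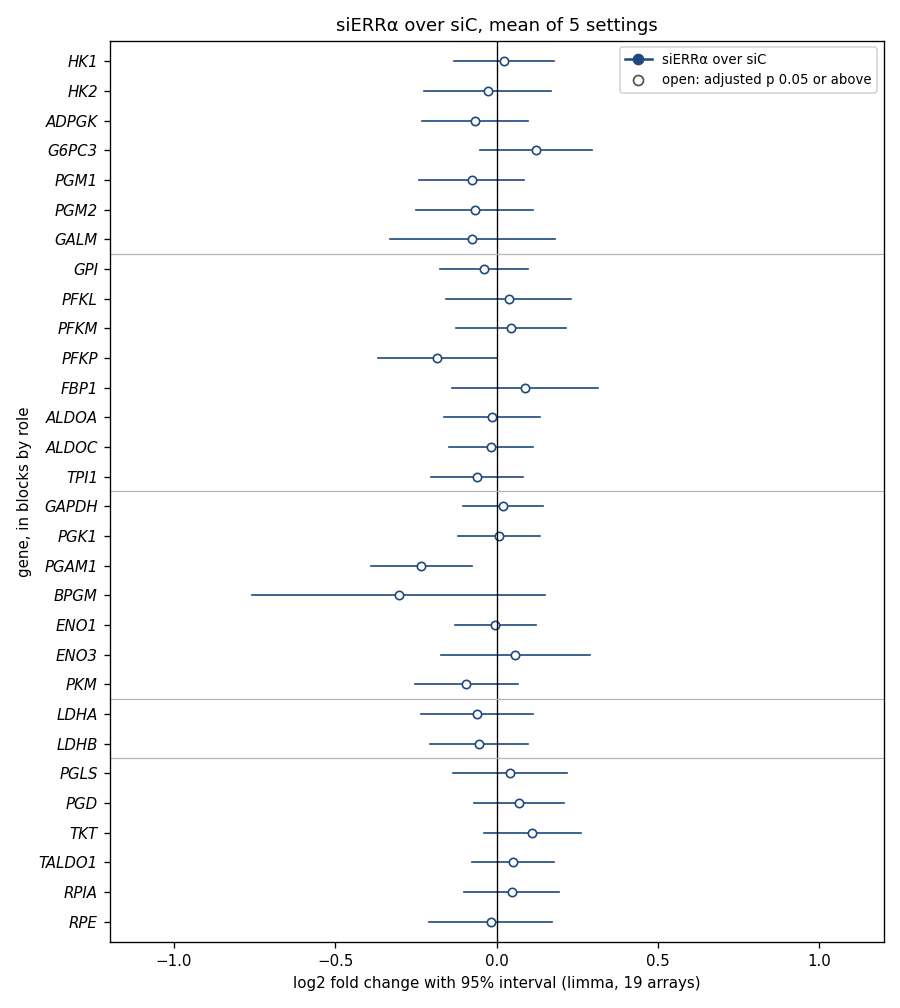
Log2 fold change of each of the 30 genes with siERRα over siC, averaged over the 5 settings, with 95% intervals from limma on 19 arrays; open points did not pass an adjusted p of 0.05. All points lay between -0.30 and 0.12, and the interval of BPGM was the widest.

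The responses to siERRα were also compared between settings. Limma called 0 of the 30 for EGF minus starved, HRG minus starved and resistant minus parental cells, with 20 arrays (0%, 0% and 0% of all genes) or with 19 (0%, 0% and 0%). With 19 arrays, 0, 0 and 2 of the 30 had an unadjusted p under 0.05, against 5.73%, 5% and 3.88% of all genes. The resistant minus parental difference was -0.71 for FBP1 (SE 0.34, 95% interval -1.43 to 0.02 with 20 arrays, adjusted p = 0.999), -0.56 for HK2 (SE 0.38) and -0.52 for HK1 (SE 0.30). With 19 arrays the intervals were -1.39 to -0.02 for FBP1 and -0.99 to -0.05 for HK1, and neither passed after adjustment (adjusted p = 0.999 for each). ESRRA itself was lower in resistant than in parental siERRα cells (-1.41, adjusted p = 0.0158, and -0.55, adjusted p = 0.0534, with the authors' normalized values). For HRG minus starved it was 0.55 for HK2, -0.47 for RPE and 0.46 for FBP1, each with an adjusted p of 1. For EGF minus starved with 19 arrays it was -0.77 for BPGM, -0.46 for RPE and 0.37 for HK2, with adjusted p-values of 0.999, 0.98 and 0.999. The second HK2 probe had the opposite sign in both, with -0.56 for HRG minus starved and -0.33 for EGF minus starved with 19 arrays.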

How the data were processed

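The authors deposited a raw table with the bead-summarized intensity of each of 47323 probes on each array, on a linear scale with no background subtraction, and a detection p-value beside it. They also deposited a normalized table, made with the lumi function of FlexArray per the paper's methods, whose values were read as log2. Its columns had a rank correlation of 1 with their own arrays, and the sources used here do not give its scale or centring, so it served only as an alternative. Per-sample columns with no matching sample numbered 0. Intensities were corrected with normexp fitted on the detection p-values (offset 16), quantile-normalized and log2-transformed in limma 3.58.1 (R 4.3.3). A probe was kept when detected at p under 0.01 on both arrays of a group, which left 15444 probes and 9592 genes. A gene was represented by its brightest detected probe, with symbols from the platform annotation. One limma fit covered the 20 arrays as 10 group means (10 residual degrees of freedom) with 15 two-sided comparisons, Benjamini-Hochberg adjusted over all genes and called at 0.05. The code was tested on simulated data. The number of arrays limits the precision, and the offset understates changes of dim genes.

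The genes and lists were chosen with earlier results of these data known. Each gene called is named (up to 10 a comparison), with the 3 largest differences where fewer than 3 were called. Alternatives were array weights, the replicate number as a block, arrays of the same experiment, offset 50, no background correction, the authors' values, no detection filter, the mean of all probes, each array left out and the methods' t-test. Leaving out a further array from the 19, and the mean of all probes with 19 arrays, were added after the data were seen. Identity between isoenzyme proteins was not analysed here. Promoter sequences and gene coordinates are from RefSeq, GRCh38.p14.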

Additional observations from a re-analysis of the deposited data

How the results depend on the processing

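No value turned its sign where it was called. Of the values recomputed, 662 kept their side of the threshold, 73 came to pass it or rose in count and 50 no longer passed or fell in count. The counts of called genes among the 30 that moved by over 1.5 times were as follows. The share of all genes called was not computed under these alternatives, the fit on 19 arrays apart. With EGF (1), the count was 4 with array weights, 0 with the arrays of the same experiment, 2 with the authors' values, 2 without background correction, 4 with the mean of all probes on 19 arrays and 0 to 4 with arrays left out. With HRG (0), it was 1 with array weights, with the authors' values, without background correction and with the mean of all probes on 19 arrays, and 0 to 1 with arrays left out. With resistance it was 8 (siC, from 4) and 7 (siERRα, from 4) with array weights, 7 in siERRα cells with the arrays of the same experiment and 9 with the mean of all probes on 19 arrays, and 2 to 7 and 2 to 8 with arrays left out. The methods' t-test called 0 in each of these, and 0 for parental over starved, after adjustment. Leaving out EGF siERRα replicate 2, which leaves only the array that stands apart in that group, gave 20 genes called with siERRα in EGF-treated cells, 9 for the mean of 5 settings and 16 for EGF minus starved, each 0 to that count over the arrays left out. FBP1 and PFKP with resistance and FBP1 between parental and starved cells were called under each of these settings, the adjusted t-test apart.

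The labels do not say what a replicate number marks, and each group holds 2. Deviations of same-numbered arrays correlated at -0.08 to 0.314 over 45 pairs of groups, with 21 over 0.1 and 0 under -0.1. With the replicate number as a block the counts were 1, 0, 1, 4 and 4 for EGF, HRG, parental over starved and resistance in siC and in siERRα cells, as without it, and 0 in every siERRα comparison.

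Groups of 2 arrays limit every call: the median SE of a difference among the 30 genes was 0.233 log2 units with 20 arrays and 0.158 with 19. Differences of that size were not resolved, nor were some well above it. With 20 arrays, limma did not call HK1 with resistance in siC cells (-0.61, SE 0.21, adjusted p = 0.151). Nor did it call PFKP with HRG (0.72, SE 0.20, adjusted p = 0.0708).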

Other observations

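The array that stood apart, EGF siERRα replicate 1, did not shift these genes in one direction. Of the 30 genes, 14 lay below all other arrays on it, 8 above and 8 within their range, while over all genes 24% lay below and 32.2% above. ALDOA read 6.59 there and 14.02 on its replicate, and PGAM1 read 4.67, below detection, against 10.30. PGK1 (9.43 against 12.21), BPGM (4.96 against 7.38) and TPI1 (11.02 against 13.18) were lower by over 2 log2 units, and LDHA by 1.66. PFKL (10.16 against 8.47), PKM (11.66 against 10.29) and PGLS (10.35 against 9.34) were higher by over 1 log2 unit. ENO1 read 14.43 against 14.42. For genes with several detected probes, siERRα over siC in EGF-treated cells, a comparison in which 1 of 2 siERRα arrays is this array, gave -3.72 for one ALDOA probe and 0.32 for the other, and -1.80, 0.32 and 0.66 for the 3 PKM probes. With 19 arrays, the same contrasts were -0.01 and 0.23 for ALDOA and -0.17, 0.13 and -0.03 for PKM.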
